A study of Mus musculus with 8 samples.

Results

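A set of 10 macrophage marker genes, of 18193 genes with a probe set of their own, was examined in mouse corneas on 8 Affymetrix arrays, through all 14 probe sets that the platform annotation gives to 1 of these genes alone, of 45037 probe sets other than controls. The genes were Adgre1, Cd163, Mrc1, Csf1r, Cd68, Itgam, C1qa, C1qb, C1qc and Lyz2. Csf1r and C1qb have 3 probe sets each and the other 8 genes have 1 each. The rule for the probe sets uses no measured value, but the 10 genes were proposed with earlier results of these data known. The 4 TGFB arrays hold corneas of mice described as overexpressing TGF-beta, and the 4 wildtype arrays hold corneas of their wildtype littermates. The labels give no isoform, promoter, site of production, strain, age or pooling for either group. Whether the arrays come from different mice is not stated either, so p-values rest on a spread between arrays that could be technical.

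Macrophages are phagocytes that live in nearly every tissue, where they clear debris and pathogens, and in the cornea they lie in the stroma and are joined by monocyte-derived cells after injury. Their survival depends on signalling through the receptor that Csf1r encodes. Adgre1 encodes F4/80, the surface receptor most used to identify mouse macrophages, while Cd163 and Mrc1 encode scavenging receptors that tissue-resident and alternatively activated macrophages carry. The C1q chains, lysozyme M (Lyz2) and the endosomal glycoprotein CD68 are products that macrophages make in quantity. Many cell types respond to the growth factor TGF-beta, macrophages among them.

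The 8 arrays had been brought to a common level before deposit. Median signals ran from 26.3 to 34.4, and 34.9% to 40.9% of probe sets on an array lay below a signal of 16. The ratio of the 3' to the 5' Gapdh control probe sets, which grows as RNA decays, was 2.88 to 3.55 on TGFB arrays and 2.19 to 6.41 on wildtype arrays, with the highest value on wildtype 4. Corneal Krt12 had signals of 289 to 4551 on TGFB arrays and 562 to 5766 on wildtype arrays, so the labelled tissue was present on every array. The low values were on TGFB 1 and wildtype 4, and the other wildtype arrays had 3008 to 5766. Transcripts of tissues next to the cornea were present in uneven amounts, and their values are given beside the results they touch. Signals of a probe set can be compared between arrays, but not with those of another probe set.

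None of the macrophage markers differed between TGFB and wildtype corneas past the threshold, and the lowest adjusted p belonged to Adgre1. Adgre1 and Cd163 had lower means in TGFB corneas under every setting tried, and in all genes but Adgre1 the groups overlapped. Most of the variation among the markers lay within the wildtype group, where arrays 1 and 4 carried the highest values of many probe sets. In whole tissue, the number of macrophages, the RNA per macrophage and the mix of tissues on an array cannot be told apart. Limma called 0 of the 14 probe sets at adjusted p under 0.05, beside 0 of 45037 probe sets in all (0.0%). At an unadjusted p under 0.05, 2 of the 14 were lower in TGFB and 0 were higher, beside 3.16% lower, 2.70% higher and 5.86% in either direction among all probe sets. Of the 14 probe sets, 10 had a lower mean in TGFB corneas, against 48.4% of all probe sets. The median difference was -0.32 over the members and 0.009 over all probe sets, in log2(signal + 16), TGFB minus wildtype.

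**Figure D1:**
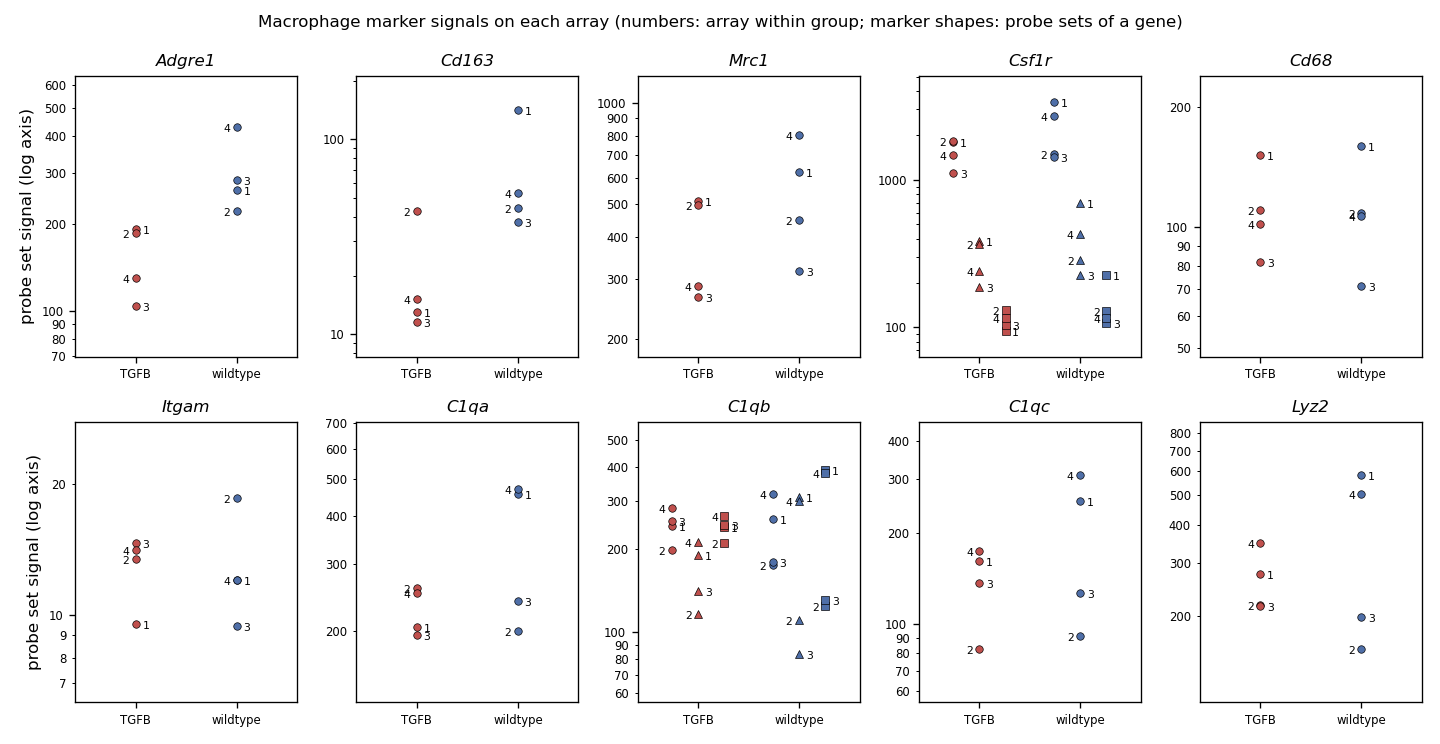
Probe set signals (log axis) of the 10 macrophage marker genes on the 4 TGFB arrays (left, red) and the 4 wildtype arrays (right, blue). Each point is 1 array with its number, and marker shapes part the 3 probe sets of Csf1r and of C1qb. Adgre1 is the gene whose groups do not overlap, and the Cd163 signal of wildtype 1 is 141 against 11.5 to 42.7 on TGFB arrays.

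Adgre1 separated the groups. The F4/80 probe set 1451161_a_at had signals of 191, 185, 104 and 129 on TGFB arrays 1 to 4, against 262, 222, 282 and 431 on wildtype arrays 1 to 4. Every TGFB array lay below every wildtype array, with TGFB 3 lowest and wildtype 4 highest. In log2(signal + 16) the means were 7.36 ± 0.38 in TGFB and 8.26 ± 0.39 in wildtype corneas (SD, n = 4 each), a difference of -0.90 (SE 0.25, 95% interval -1.46 to -0.35, limma adjusted p = 0.833). It was the 1 member of 14 whose groups did not overlap with TGFB lower, where 1.81% of all probe sets did so, and none parted with TGFB higher, as 1.47% of all probe sets did. The interval is not adjusted for the number of probe sets. Without wildtype 4, whose Gapdh 3'/5' ratio was highest, the difference was -0.72 (limma adjusted p = 0.303).

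Cd163, the receptor that takes up haemoglobin bound to haptoglobin, had low signals on TGFB arrays. Its signals were 12.98, 42.7, 11.5 and 15.2 on TGFB arrays, against 141, 44.5, 37.5 and 53.2 on wildtype arrays. The groups overlapped through TGFB 2, which lay above wildtype 3, and the other TGFB arrays were below the offset of 16 that was added before the logarithm. The log2 means were 5.12 ± 0.51 in TGFB and 6.27 ± 0.70 in wildtype corneas, a difference of -1.15 (SE 0.37, 95% interval -1.97 to -0.32, limma adjusted p = 0.837). Wildtype 1 held the highest value, and without it the difference was -0.80 (limma adjusted p = 1.00). With an offset of 1 in place of 16, which weighs dim signals more, it was -1.69 (limma adjusted p = 0.844). Mrc1, the mannose receptor CD206, had signals of 511, 498, 266 and 286 on TGFB arrays, against 624, 450.3, 318 and 800.3 on wildtype arrays. TGFB 3 and TGFB 4 were lowest and wildtype 4 and wildtype 1 highest, with the other 4 arrays between. The log2 difference of Mrc1 was -0.46 (SE 0.32, limma adjusted p = 0.907), and -0.25 without wildtype 4.

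Csf1r, the receptor for the growth factors CSF1 and IL-34, was measured by 3 probe sets. The brightest, 1419872_at, had signals of 1799, 1839, 1111 and 1485 on TGFB arrays, against 3372, 1499.8, 1421 and 2725 on wildtype arrays. Wildtype 1 and wildtype 4 lay above all other arrays, while wildtype 2 and wildtype 3 lay inside the range of TGFB arrays. The log2 means were 10.59 ± 0.33 in TGFB and 11.05 ± 0.62 in wildtype corneas, a difference of -0.46 (SE 0.30, limma adjusted p = 0.905). Probe set 1419873_s_at gave -0.38 (SE 0.35), with 189 to 385 on TGFB arrays and 228 to 695 on wildtype arrays. Probe set 1423593_a_at gave -0.29 (SE 0.22), with 94.8 to 132 on TGFB arrays and 108 to 225 on wildtype arrays. Wildtype 1 was the highest array on all 3 probe sets, whereas wildtype 4 at 116 was inside the TGFB range on the dimmest.

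Cd68 and Itgam had group means that nearly met. Cd68, a glycoprotein of endosomes and lysosomes, had signals of 151, 111, 81.8 and 102 on TGFB arrays, against 159, 109, 71.3 and 107 on wildtype arrays. Array 1 was the highest and array 3 the lowest of each group, although the numbers pair no arrays. The log2 difference was 0.016 (SE 0.24, 95% interval -0.52 to 0.55, limma adjusted p = 0.995). Itgam encodes CD11b, the integrin chain of macrophages, monocytes and neutrophils. Its probe set 1422046_at gave 9.55 to 14.7 on TGFB arrays and 9.48 to 18.6 on wildtype arrays, near or below the offset, so a difference in this gene was not detectable here (log2 difference 0.001, SE 0.14).

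The genes of C1q, the recognition protein that starts the classical complement pathway, behaved alike on the wildtype arrays. C1qa, C1qb and C1qc encode the 3 chains that together form the protein, and they neighbour each other on the chromosome. C1qa had signals of 205, 259, 196 and 253 on TGFB arrays, against 456, 201, 239.8 and 471 on wildtype arrays. Wildtype 1 and wildtype 4 stood above the other 6 arrays, which lay within a narrow range of each other. The log2 means were 7.92 ± 0.19 in TGFB and 8.39 ± 0.60 in wildtype corneas, a difference of -0.47 (SE 0.28, limma adjusted p = 0.894). C1qc had 161, 82.8, 137 and 174 on TGFB arrays, against 255, 91.4, 127 and 310.1 on wildtype arrays, a log2 difference of -0.35 (SE 0.37, limma adjusted p = 0.927). Again wildtype 4 and wildtype 1 were highest, and the lowest array was TGFB 2.

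The 3 C1qb probe sets did not give the same direction. The brightest, 1434366_x_at, had 242, 199.9, 253 and 284 on TGFB arrays, against 258, 176, 180.1 and 318 on wildtype arrays (log2 difference 0.10, SE 0.21). Probe set 1437726_x_at had 240.5, 212, 245 and 264 on TGFB arrays, against 389, 125, 131 and 379 on wildtype arrays (0.09, SE 0.36). Probe set 1417063_at had 190.2, 116, 141 and 213 on TGFB arrays, against 309, 110.4, 83.4 and 299 on wildtype arrays (-0.10, SE 0.40). The limma adjusted p was between 0.969 and 0.985 for the 3. On 1437726_x_at the 4 TGFB arrays all lay in the gap between wildtype 2 and wildtype 3 below and wildtype 1 and wildtype 4 above, with log2 SDs of 0.12 in TGFB and 0.85 in wildtype corneas. The ending x_at marks probe sets whose probes may also bind other transcripts.

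Lyz2, the lysozyme of macrophages and neutrophils, followed the C1q genes. Its signals were 276, 218, 216 and 349 on TGFB arrays, against 582, 156, 199 and 505 on wildtype arrays. The TGFB arrays again fell between the 2 lower and the 2 higher wildtype arrays. The log2 means were 8.11 ± 0.31 in TGFB and 8.36 ± 0.90 in wildtype corneas, a difference of -0.25 (SE 0.40, limma adjusted p = 0.956). Lyz1 is a close copy of Lyz2, and the array values cannot show how far its transcripts add to the Lyz2 probe set.

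The promoters of C1qb, C1qc, Lyz2, Mrc1 and Cd163 are shown. Each of these members has an examined window and a probe set with its 2 highest signals on wildtype 1 and wildtype 4. C1qb has such signals at 2 of its 3 probe sets, though not at its brightest. Csf1r and C1qa also have such a probe set, but the Csf1r window was not examined and C1qa had none. PU.1, the factor encoded by Spi1, is known to drive many macrophage genes and binds purine-rich sites with a GGAA core. Each window runs from 250 bases before to 50 bases after the annotated start (RefSeq, build GRCm38.p6), 5′ to 3′ on the gene's strand, and capitals mark GAGGAA or AGGAAGT on either strand.
C1qb promoter, chr4:136886151-136886450, minus strand: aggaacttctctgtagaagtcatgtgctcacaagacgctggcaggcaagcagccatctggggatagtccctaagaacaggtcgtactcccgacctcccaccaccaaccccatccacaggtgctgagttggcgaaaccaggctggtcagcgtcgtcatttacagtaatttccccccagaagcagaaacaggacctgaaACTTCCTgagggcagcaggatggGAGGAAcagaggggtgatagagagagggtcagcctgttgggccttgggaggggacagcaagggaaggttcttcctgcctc
C1qc promoter, chr4:136892865-136893164, minus strand: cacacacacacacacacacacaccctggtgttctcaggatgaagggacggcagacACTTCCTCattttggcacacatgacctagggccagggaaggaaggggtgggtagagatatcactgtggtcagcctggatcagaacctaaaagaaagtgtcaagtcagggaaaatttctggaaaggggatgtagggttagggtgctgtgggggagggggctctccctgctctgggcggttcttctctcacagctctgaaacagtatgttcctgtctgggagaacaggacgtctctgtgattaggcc
Lyz2 promoter, chr10:117282223-117282522, minus strand: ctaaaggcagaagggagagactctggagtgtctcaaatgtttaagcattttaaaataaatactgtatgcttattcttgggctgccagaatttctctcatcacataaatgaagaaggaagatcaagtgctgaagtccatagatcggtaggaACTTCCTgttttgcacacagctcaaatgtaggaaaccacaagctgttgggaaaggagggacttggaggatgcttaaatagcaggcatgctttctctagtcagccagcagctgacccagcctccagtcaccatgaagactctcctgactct
Mrc1 promoter, chr2:14229164-14229463, plus strand: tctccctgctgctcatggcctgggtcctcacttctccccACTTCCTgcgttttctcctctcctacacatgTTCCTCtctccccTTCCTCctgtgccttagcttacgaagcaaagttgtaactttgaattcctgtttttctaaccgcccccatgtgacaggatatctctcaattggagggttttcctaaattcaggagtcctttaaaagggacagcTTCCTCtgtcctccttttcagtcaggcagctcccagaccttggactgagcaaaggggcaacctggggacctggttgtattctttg
Cd163 promoter, chr6:124304401-124304700, plus strand: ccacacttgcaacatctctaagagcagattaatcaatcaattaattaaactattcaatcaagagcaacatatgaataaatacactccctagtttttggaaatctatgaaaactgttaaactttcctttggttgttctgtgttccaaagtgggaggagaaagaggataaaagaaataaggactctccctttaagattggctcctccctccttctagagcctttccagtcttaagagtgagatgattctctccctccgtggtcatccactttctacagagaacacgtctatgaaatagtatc
GAGGAA was found in 28.3% of 32851 promoter windows and AGGAAGT in 9.35%, and the motifs can overlap, as in the C1qc window. Of the 7 members whose window was examined, 5 held GAGGAA, 4 held AGGAAGT and 6 held either, beside 32.7% of all windows for either. The Csf1r window was left out of these counts. The motifs were chosen with the windows in view. C1qb, C1qc and Mrc1 each held both motifs, Lyz2 held AGGAAGT alone and Cd163 held neither. A match describes letters and is not a binding site.

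Set side by side, the members varied more over the wildtype than over the TGFB arrays. The SD of log2 values was larger in wildtype corneas for 14 of 14 probe sets, where this held for 57.8% of all probe sets. Wildtype 1 was the highest of the 8 arrays for 8 probe sets and wildtype 4 for 5, and Itgam was the exception with wildtype 2. Wildtype 1 and wildtype 4 were the 2 highest arrays for 9 of the 14 probe sets and for 6 of the 10 genes at their brightest probe set, while among all probe sets this held for 2.91% and among all genes for 3.73%. These counts were chosen after the values were seen, and probe sets of 1 gene and genes of 1 cell type are not independent. The mean log2 value of the 10 genes, each at its brightest probe set, was 7.59, 7.56, 7.24 and 7.51 on TGFB arrays, against 8.30, 7.48, 7.45 and 8.24 on wildtype arrays. Wildtype 2 and wildtype 3 thus lay within the range of the TGFB arrays, and the group difference of this mean (-0.39) came with SDs of 0.16 in TGFB and 0.47 in wildtype corneas. Without wildtype 1 and wildtype 4, a setting chosen with the values in view, 5 of the 14 probe sets had a lower mean in TGFB corneas, and the median difference was 0.11. Adgre1 (-0.70) and Cd163 (-0.71) were among these 5, with limma adjusted p of 0.571 and 0.630. In this setting 1 of the 14 was lower at an unadjusted p under 0.05 and 3 were higher. Of all 45037 probe sets, 2127 were lower and 1571 higher at that threshold.

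**Figure D2:**
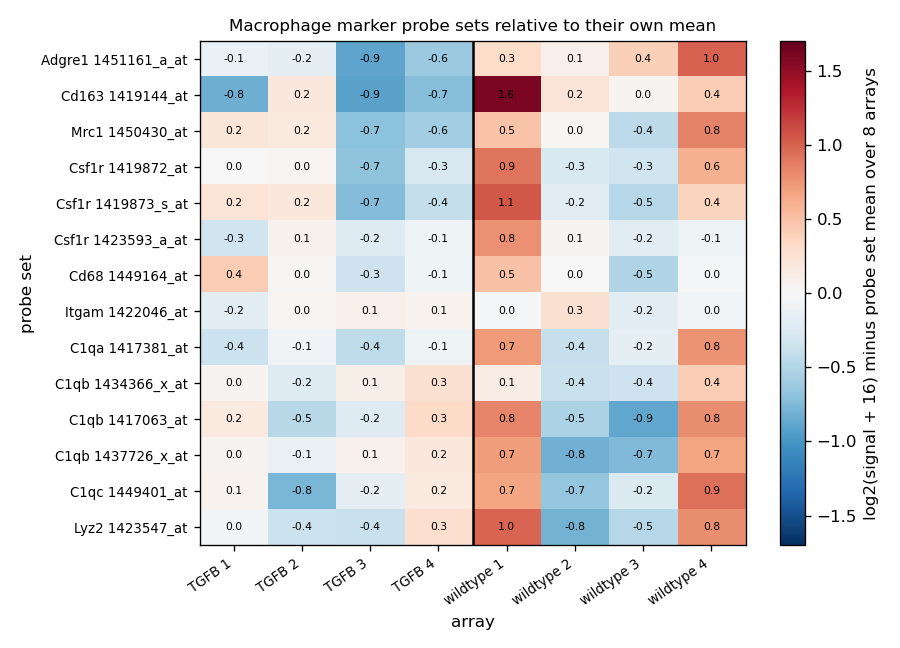
Each cell is log2(signal + 16) of a macrophage marker probe set on 1 array, minus the mean of that probe set over the 8 arrays. TGFB arrays are left of the black line and wildtype arrays right of it. The columns of wildtype 1 and wildtype 4 are mostly red, and 9 of 14 probe sets have these arrays as their 2 highest.

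**Figure D3:**
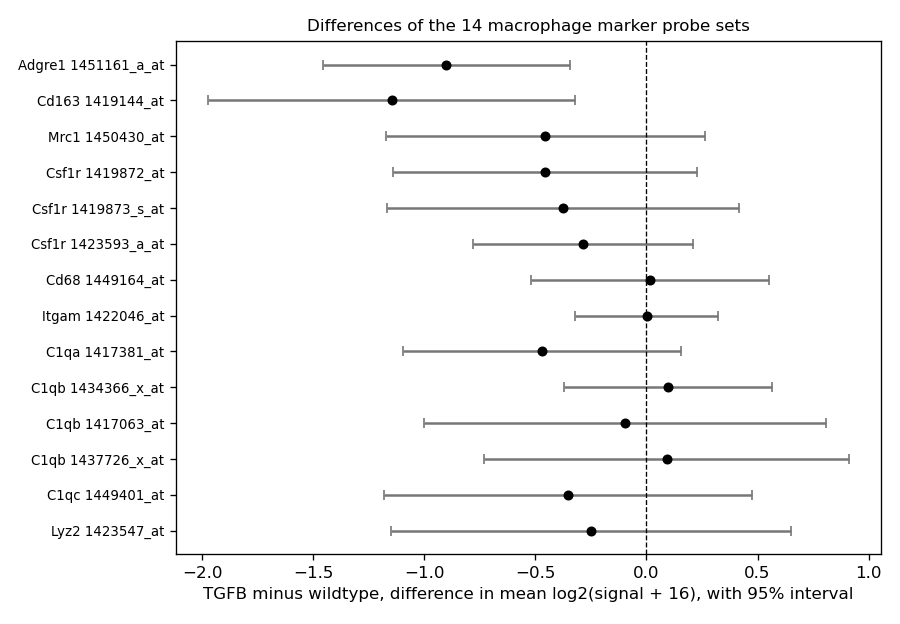
Points are differences in mean log2(signal + 16), TGFB minus wildtype, for the 14 probe sets, and bars are 95% intervals of the limma fit, not adjusted for the number of probe sets. The differences run from -1.15 for Cd163 to 0.10 for C1qb, and the bars of Adgre1 and Cd163 do not reach 0.

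Genes with the pattern most like the mean of the 10 members were sought among 8787 other genes with a mean signal of at least 100. The measure was Pearson's r over the 8 arrays, given as a description. The 10 closest were Sec62 (r = 0.964), Ifi27 (0.949), St6galnac6 (0.948), Gstt1 (0.948), Camk1 (0.948), Samd9l (0.946), Sar1a (0.931), Surf1 (0.926), Tspyl3 (0.921) and Hfe (0.917). All 10 had their 2 highest signals on wildtype 1 and wildtype 4, and r over the other 6 arrays was lower for each. It was then 0.881 for Sec62, 0.747 for St6galnac6, 0.544 for Hfe, between 0.355 and 0.434 for Gstt1, Camk1, Sar1a and Samd9l, 0.129 for Ifi27, 0.090 for Tspyl3 and -0.37 for Surf1. Hfe, for example, had 107 to 176 on TGFB arrays and 361, 101, 111 and 230.2 on wildtype arrays.

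Further genes of macrophages and other leukocytes went both ways. Of 24 pan-myeloid genes measured, 8 had lower and 16 higher means in TGFB corneas, with a median difference of 0.094, against -0.40 for the 10 marker genes and -0.014 for all 18193 genes. The difference between the lists was not tested, and the pan-myeloid median was 0.0049 without wildtype 3, -0.040 without TGFB 1, TGFB 2 and wildtype 2, and -0.065 with the pigment list mean as covariate. Limma called 0 of them, and 1 passed an unadjusted p under 0.05 with TGFB higher, where 2.69% of all genes did. The pan-leukocyte phosphatase Ptprc had signals of 83.9 to 129.97 on TGFB arrays, against 129, 58.7, 55.6 and 165 on wildtype arrays (log2 difference 0.23, SE 0.31). The adaptor Tyrobp had 301 to 527 on TGFB arrays, against 351, 148, 154 and 732 on wildtype arrays (0.37, SE 0.46), and Fcer1g had 75.2 to 102 against 119, 60.3, 64.6 and 183 (-0.15, SE 0.30). For these 3 genes too, wildtype 1 and wildtype 4 were the higher pair within the wildtype group. Spi1 itself had 42.3 to 50.4 on TGFB arrays and 36.4 to 44.9 on wildtype arrays (0.14, SE 0.12). Lgals3, the lectin galectin-3, which epithelia also make, did not overlap, with 1965 to 4422 on TGFB arrays and 599 to 1802 on wildtype arrays (1.16, SE 0.37, limma adjusted p = 0.837). Cd14 (0.74, SE 0.41), Coro1a (0.41, SE 0.26) and Mpeg1 (0.51, SE 0.35) overlapped, as did the chemokine receptors Cx3cr1 (-0.16, SE 0.25) and Ccr2 (0.15, SE 0.25).

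Genes of resident and alternatively activated macrophages also went both ways. Of 23 genes, 15 had lower means in TGFB corneas, with a median of -0.27 and 0 limma calls, and 2 were lower at an unadjusted p under 0.05, where 4.54% of all genes were. The chemokine Ccl24 had 4.13, 10.03, 12.1 and 6.54 on TGFB arrays, against 47.7, 56.9, 28.3 and 85.0 on wildtype arrays (-1.49, SE 0.24, limma adjusted p = 0.822). Its TGFB signals were all below the offset, and the groups did not overlap. The ficolin Fcna (-0.66, SE 0.29), the factor XIII chain F13a1 (-0.64, SE 0.32) and the lipid transfer protein Pltp (-0.76, SE 0.39) overlapped. Among the 8 genes with higher means were the arginase Arg1 (1.27, SE 0.82) and the scavenger receptor Msr1 (0.84, SE 0.44), both named with their values in view. Among 15 genes of classically activated macrophages 7 were lower and 8 higher (median 0.11, 0 calls). The cytokine Il6 was dim, with 7.94 to 24.4 on TGFB arrays and 0.251 to 6.01 on wildtype arrays (0.73, SE 0.21), Il1b had a difference of 0.70 (SE 0.29), Irf5 0.36 (SE 0.18) and the chemokine Cxcl10 -0.55 (SE 0.18). For Il6, Il1b, Irf5 and Cxcl10 limma gave an adjusted p between 0.834 and 0.874.

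The ligands of Csf1r, further CSF genes, chemokines and their receptors had no call. Csf1 had signals of 86.8 to 156 on TGFB arrays and 70.6 to 150.3 on wildtype arrays (0.26, SE 0.24), and Il34 had 5.32 to 74.8 on TGFB arrays and 8.07 to 32.6 on wildtype arrays (0.30, SE 0.44). Of the 14 genes measured, 2 were lower and 12 higher (median 0.28), where 52.6% of all genes were lower. The receptors Csf3r (0.80, SE 0.24) and Csf2rb (0.76, SE 0.26) were higher at an unadjusted p under 0.05, where 2.69% of all genes were. The ligand Csf3 had 0.45 (SE 0.22) and the receptor chain Csf2ra -0.30 (SE 0.15). Csf3r (2.06 to 33.2 over the 8 arrays) and Csf3 (1.43 to 23.5) had signals near or below the offset of 16, which limits what they can show. For the chemokines Ccl12 (0.77, SE 0.51), Ccl2 (0.62, SE 0.46) and Ccl7 (0.24, SE 0.29) the groups overlapped. Lysosomal genes, which macrophages share with most cells, had lower means in TGFB corneas for 14 of 16 genes (median -0.22, 0 calls), and the median was 0.013 with the pigment covariate. Ctsh (-0.63, SE 0.19), Hexa (-0.63, SE 0.22) and Gpnmb (-1.67, SE 0.66) were lower at an unadjusted p under 0.05, as were 4.54% of all genes, and Ctsl had -0.40 (SE 0.23). Gpnmb is also made by pigment cells.

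**Figure D4:**
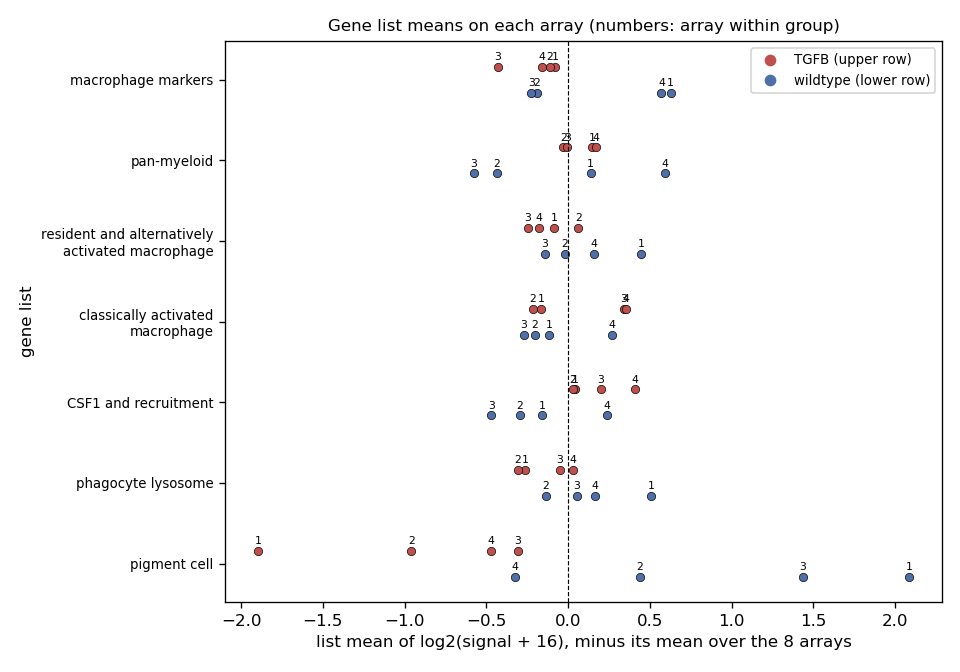
Each point is the mean log2(signal + 16) of a gene list on 1 array, minus the mean of that list over the 8 arrays, with TGFB arrays (red) above wildtype arrays (blue) in each row. For the 10 macrophage markers wildtype 1 and wildtype 4 lie apart to the right. For the pan-myeloid list the TGFB arrays lie above wildtype 2 and wildtype 3 and below wildtype 4, and for the pigment cell list the groups overlap through wildtype 4 and TGFB 3.

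Markers of other tissues moved with the groups or with single arrays. Pigment cell genes had lower means in TGFB corneas for 9 of 9 genes, with a list mean of 7.37 to 8.96 on TGFB arrays and 11.35, 9.70, 10.70 and 8.94 on wildtype arrays. Oca2 (-2.71, SE 0.65), Gpr143 (-2.04, SE 0.57), Mlana (-2.56, SE 0.75) and Trpm1 (-1.88, SE 0.56) led that list. Wildtype 4, which shared the high macrophage values with wildtype 1, had the lowest pigment mean of the wildtype arrays, and wildtype 1 had the highest. Fitted with the pigment mean beside the group, the difference of Adgre1 was -1.41, that of Cd163 -0.69 and that of Mrc1 -1.04 (limma adjusted p = 1.00 for each). Cornified epidermis genes were high on TGFB 1, TGFB 2 and wildtype 2 (list means of 12.22, 12.59 and 11.45, against 6.24 to 7.20 elsewhere). Without these 3 arrays the differences of Adgre1, Cd163 and Mrc1 were -1.34, -1.51 and -0.94, each with a limma adjusted p of 0.987. The lens list ran from 4.77 to 11.14 on TGFB arrays and from 5.42 to 11.74 on wildtype arrays, and the skeletal muscle list from 10.15 to 11.08 and from 10.30 to 11.28. The cornea list had lower means in TGFB corneas for 8 of 10 genes (median -0.45, and 0.24 with the pigment covariate). Wildtype 4 had the lowest Krt12 (562), Pax6 (206) and Krt5 (2302) of the wildtype arrays, though not the lowest Krt14. It had the highest stromal Kera (8110), Lum (8788) and Dcn (10642.5) of the 8 arrays. Wildtype 1 had 5146 for Krt12, 799 for Pax6, 4329 for Kera, 4801 for Lum and 8099 for Dcn. Because the pigment mean nearly parted the groups, the fit with it as covariate cannot separate pigment content from group. The part of these tissues and of the corneal mix in the macrophage marker values was not tested.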

How the data were processed

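The series holds 8 one-colour Affymetrix arrays of corneal RNA, 4 TGFB and 4 wildtype, grouped by the labels' descriptions and numbered in record order, so that numbers pair no arrays. The authors deposited linear probe set intensity values, and what software and scaling made them is not stated in the labels or the file. The 2% trimmed mean was the same on every array, so no further normalization was applied. No 2 arrays held identical values. Of 45101 probe sets, 64 controls were left out. A platform annotation of 2016 gave 1 symbol to 34945 probe sets and several to 932, 9160 were not named here, and 34741 were matched by Entrez ID to RefSeq genes (GRCm38.p6). The number of arrays limits the precision.

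Values were taken as log2(signal + 16), which understates changes of dim genes. TGFB was compared with wildtype in limma 3.58.1 (R 4.3.3, lmFit and eBayes) in 1 fit over 45037 probe sets, with Benjamini-Hochberg adjustment over all of them and a threshold of 0.05. The fit was also run on simulated data with independent noise for each probe set. Those data hold no pattern shared by the probe sets of an array, so they cannot test for one. Member genes are given with every probe set. For 15 context lists (192 genes, 182 measured), each gene was represented by its brightest probe set, with up to 4 genes per list named by smallest p plus Ptprc, Tyrobp, Fcer1g, Spi1, Cx3cr1, Ccr2, Csf1, Il34 and Ccl24. Members and lists were chosen with earlier results of these data known, and any other gene was named with its values in view. Alternatives were other offsets, quantile normalization, median centring, leaving out probe sets below the 40th percentile of mean values, gene-level units, a variance trend, robust eBayes, array weights, a pigment covariate and arrays left out. Figures were drawn with matplotlib 3.10.9.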

Additional observations from a re-analysis of the deposited data

Results flagged for a closer look

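Cd163 on TGFB 2 lay far from the other TGFB arrays. Its signal was 42.7, against 11.5 to 15.2 on the other 3, and the gap made up 0.833 of the group's range on the log2 scale, just past the 95% limit of Dixon's test for 4 values. In 30 such groups of 4 (14 probe sets and their mean, in each of 2 groups), about 1 in 20 would pass this limit by chance. Without TGFB 2, the Cd163 difference was -1.40 (limma adjusted p = 0.900).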

How the results depend on the processing

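Limma called 0 of the member probe sets or genes, and 0 context genes, under each of the 21 alternatives. Over all probe sets it called 0, except 2 without wildtype 4 and 2 without wildtype 1 and wildtype 4, so single arrays left out gave 0 to 2. The median difference of the members ran from -0.51 to -0.080 over single arrays left out, and was 0.11 without wildtype 1 and wildtype 4. Adgre1 (-1.41 to -0.70), Cd163 (-1.69 to -0.69) and Mrc1 (-1.04 to -0.019) kept their direction under all 21. Other members changed sign in some settings, and the cause was not tested. Over single arrays left out, Itgam ran from -0.059 to 0.087, Cd68 from -0.15 to 0.18, Lyz2 from -0.56 to 0.039, C1qb 1417063_at from -0.41 to 0.16, C1qb 1434366_x_at from -0.015 to 0.25 and C1qb 1437726_x_at from -0.17 to 0.34. Itgam was -0.00058 with an offset of 32, -0.011 with quantile normalization, -0.028 with median centring, -0.056 with array weights and -0.039 without wildtype 1 and wildtype 4. Cd68 was -0.013 with median centring, -0.20 without the 3 arrays with cornified transcripts and -0.10 with the pigment covariate. With array weights C1qb 1417063_at (0.22), C1qc (0.013) and Lyz2 (0.11) turned. C1qb 1437726_x_at was -0.084 without the 3 arrays with cornified transcripts, and Csf1r 1423593_a_at was 0.10 with the pigment covariate. Without wildtype 1 and wildtype 4, Csf1r 1419872_at (0.066), Csf1r 1419873_s_at (0.15), C1qa (0.042), C1qb 1417063_at (0.66), C1qc (0.28) and Lyz2 (0.52) turned. No paired analysis was possible because the numbers within a group follow record order and pair no arrays. Signals near or below 16, as for Itgam on all arrays and Cd163 on 3 TGFB arrays, limit what these genes can show.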

Other observations

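Other leukocyte lists beside the macrophage markers had no limma call. Of 10 neutrophil genes, 5 had lower and 5 higher means in TGFB corneas (median -0.039). The elastase Elane had a log2 difference of -0.63 (SE 0.22), lactoferrin Ltf, which ocular glands also secrete, 1.31 (SE 0.73), Mpo -0.54 (SE 0.33) and Cxcr2 0.14 (SE 0.16). Elane (4.67 to 36.2 over the 8 arrays), Mpo (0.51 to 45.0) and Cxcr2 (1.27 to 9.28) were dim. S100a8 (0.64, SE 0.85) and S100a9 (0.64, SE 0.78) overlapped, with their highest signals on wildtype 3 (785 and 473). Of 11 dendritic and Langerhans cell genes, 6 had higher means (median 0.041). The class II chain H2-Ab1, which macrophages can also carry, had signals of 92.9, 52.2, 77.3 and 62.6 on TGFB arrays, against 77.4, 21.4, 3.24 and 25.8 on wildtype arrays (1.07, SE 0.41, limma adjusted p = 0.837), so that only wildtype 1 reached the TGFB range. The class II chain H2-Aa (0.23, SE 0.35) and the class II invariant chain Cd74 (-0.030, SE 0.24) overlapped, so the list does not give class II 1 direction. Batf3 (-0.41, SE 0.21), Itgax (0.22, SE 0.13) and Zbtb46 (-0.21, SE 0.16) were dim.

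Of 8 mast cell genes, 5 had higher means, but the sign of their median (0.24) is not settled. It ran from -0.25 without TGFB 2 to 0.58 without TGFB 4 over single arrays left out, and was -0.30 with array weights, -0.38 without the 3 arrays with cornified transcripts and -0.41 with the pigment covariate. The list mean was 7.28, 7.54 and 7.09 on these 3 arrays (TGFB 1, TGFB 2 and wildtype 2), against 5.83 to 6.33 elsewhere, and the part of these arrays in the result was not tested. The histidine decarboxylase Hdc did not overlap, with 197, 286, 69.5 and 79.7 on TGFB arrays, against 15.9, 68.2, 28.6 and 47.6 on wildtype arrays (1.53, SE 0.45, limma adjusted p = 0.834), whereas Fcer1a (-0.31, SE 0.22), Mcpt4 (0.36, SE 0.43) and Kit (-0.25, SE 0.37) overlapped. T, B and NK cell genes had 5 lower and 6 higher of 11 (median 0.010), with list means between 4.47 and 4.82 on all 8 arrays, and Cd3g, Cd79b, Cd3e and Nkg7 had differences of 0.51, -0.24, 0.16 and -0.16. The 6 microglia genes all had lower means (median -0.20), where 52.6% of all genes did. Among them were Olfml3 (-0.34, SE 0.28), P2ry12 (-0.20, SE 0.17), Tmem119 (-0.30, SE 0.27) and Sall1 (-0.20, SE 0.20). Olfml3 and Tmem119 had signals of 188 to 797 over the 8 arrays. The other microglia genes had 1.58 to 32.9, mostly near or below the offset of 16, which limits what their direction can show. No p under 0.05 was reached by a microglia, T, B or NK cell gene before adjustment.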
